A study of Mus musculus with 13 samples.

Results

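Ribosomal protein genes of the cytosol and of the mitochondrion were followed in epididymal fat of mice. The genes were chosen by symbol among probe sets annotated to 1 gene: symbols beginning with Rpl or Rps and a digit, together with Rpsa, Rplp0, Rplp1 and Rplp2, formed the cytosolic class, and symbols beginning with Mrpl or Mrps and a digit formed the mitochondrial class. Kinases of the Rps6k family, Rps3a1 and pseudogenes were left out, and the probe set with the highest mean stood for a gene. This gave 149 of the 18818 genes measured, of which 75 were cytosolic (47 of the large and 28 of the small subunit) and 74 mitochondrial (46 of the large and 28 of the small subunit). Of the 75, Rps19bp1 encodes a protein that binds Rps19 and is no subunit itself. Rps23rg1, a retrogene derived from Rps23, was counted in the small subunit by its symbol. Whether its product is a subunit was not checked. A further 9 ribosomal protein symbols, among them Rpl32, Rpl37a, Rps16 and Mrpl24, stood only on probe sets annotated to several genes and are no members.

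Cytosolic ribosomes translate the mRNAs of the nucleus and are built in the nucleolus from ribosomal RNA and imported proteins. In mammals the mRNAs of their proteins begin with a run of pyrimidines, the 5′ TOP (terminal oligopyrimidine) motif, through which the kinase mTOR and the protein Larp1 control their translation, while Myc raises the transcription of many ribosome genes. Mitochondrial ribosomes translate the few respiratory chain subunits encoded by mitochondrial DNA. Their RNA is mitochondrial, whereas their proteins are encoded in the nucleus and imported.

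The arrays measured RNA of 13 samples of epididymal white fat from male mice of 6.5 weeks on a C57Bl/6J background, all on a high fat diet from day 0 until they were killed on day 4. CD1d knockout mice (strain B6.129S6-Cd1d1/Cd1d2tm1spb/J, written CD1d-/- in the labels) gave 3 arrays after α-galactosylceramide (αGalCer, 100 ng per g of body weight into the peritoneum on days 0 and 2) and 3 after the vehicle pyridine, and wild type (WT) mice gave 4 arrays after αGalCer and 3 after vehicle. αGalCer is a glycolipid that activates natural killer T cells when CD1d presents it, and CD1d knockout mice lack these cells. The series' title asks what activation of these cells does to macrophages in fat and to glucose tolerance. The labels number the replicates of each group without saying that each came from its own animal, so p-values measure only the spread between these samples, which may be technical. The targeted gene Cd1d1 had log2 signals of 3.56, 2.64 and 3.24 in knockout arrays after αGalCer and 3.45, 4.03 and 3.72 in knockout arrays after vehicle, against 10.01, 9.08, 9.74 and 9.71 in WT arrays after αGalCer and 10.67, 10.55 and 10.86 in WT arrays after vehicle, so every array went with the genotype of its label; treatment was not checked this way.

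All values are log2 signals of the deposited RMA table, in which each unit is a doubling; they compare the arrays within a gene, not one gene with another. Changes are differences of log2 group means from 1 limma model, ± is the standard error (SE) of a change, and a call means an adjusted p under 0.05 after Benjamini-Hochberg adjustment over all 18818 genes. Fat is a mixture, so fewer cells of a type and less RNA per cell cannot be told apart. Of the lists of cell markers, 10 of 10 macrophage genes, 11 of 11 T and NK cell genes and 9 of 9 proliferation genes rose in WT after αGalCer, and 10 of 10 adipocyte and 7 of 7 endothelial genes fell. The arrays' mean macrophage signal was 10.57 to 10.66 in WT after αGalCer and 8.03 to 8.87 in WT after vehicle, that of T and NK cells 8.01 to 8.54 and 5.07 to 5.33, that of proliferation 8.95 to 9.61 and 6.62 to 7.26, that of adipocytes 10.35 to 11.11 and 12.09 to 12.19, and that of endothelium 8.22 to 8.60 and 9.81 to 9.94. Epithelial markers fell in 7 of 11, at 4.76 to 4.89 in WT after αGalCer and 5.72 to 7.21 in WT after vehicle. In CD1d knockout mice 0 genes of these lists were called after αGalCer, but epithelial, macrophage and endothelial markers had shifted values there too. All 11 epithelial genes had negative changes (median -1.64, 7 of them at an unadjusted p under 0.05), and the arrays' mean was 4.74 to 4.91 in knockout after αGalCer and 5.15 to 8.05 in knockout after vehicle. All 10 macrophage genes had positive changes (median 0.37, 1 at an unadjusted p under 0.05), at 8.68 to 9.22 in knockout after αGalCer and 8.52 to 8.61 in knockout after vehicle. All 7 endothelial genes had positive changes, unlike in WT (median 0.13, 1 at an unadjusted p under 0.05). Their mean was 9.92 to 9.99 in knockout after αGalCer and 9.72 to 9.89 in knockout after vehicle. The part of these cells in the results on ribosomal protein genes was not tested.

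The promoters of 126 of the 149 genes (61 cytosolic, 65 mitochondrial) stood in a RefSeq table of 27025 genes for the build GRCm38.p6. A run of at least 8 C or T on the sense strand within 15 bases of the listed start was found in 27 of 61 cytosolic genes (44.3%) and in 9 of 65 mitochondrial genes (13.8%), beside 13.9% of all genes in the table. The following 60 bases around the listed start, of which 40 lie before it, are examples from genes of both classes that are followed through the results. Only the cytosolic examples were picked for having a run, so the examples do not test the difference between the classes. The first 4 are cytosolic genes that rose in WT after αGalCer, and capitals mark the whole pyrimidine run. Their windows lie at chr8:123102310-123102369 (plus strand), chr16:33056442-33056501 (plus strand), chr7:118116128-118116187 (minus strand) and chr14:24490638-24490697 (plus strand), and the runs are 10, 13, 10 and 9 bases long. The runs begin at -16, -5, -15 and -3 relative to the listed start. Those of Rpl13 and Rps15a end before it, so they lie outside the mRNA as listed, and those of Rpl35a and Rps24 span it.
Rpl13: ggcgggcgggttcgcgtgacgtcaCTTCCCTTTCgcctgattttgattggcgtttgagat
Rpl35a: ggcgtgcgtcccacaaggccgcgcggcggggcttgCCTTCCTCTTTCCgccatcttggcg
Rps15a: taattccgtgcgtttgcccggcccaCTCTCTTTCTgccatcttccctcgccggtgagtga
Rps24: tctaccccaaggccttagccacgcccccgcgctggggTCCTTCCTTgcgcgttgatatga

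The next 4 are mitochondrial genes, of which Mrpl52 and Mrps27 rose and Mrpl51 and Mrps31 fell, and their windows hold no such run near the start. They lie at chr14:54426869-54426928 (plus strand), chr13:99344746-99344805 (plus strand), chr6:125192160-125192219 (plus strand) and chr8:22411300-22411359 (plus strand).
Mrpl52: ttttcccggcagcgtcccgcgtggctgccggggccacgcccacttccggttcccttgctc
Mrps27: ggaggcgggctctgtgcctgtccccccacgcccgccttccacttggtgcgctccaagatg
Mrpl51: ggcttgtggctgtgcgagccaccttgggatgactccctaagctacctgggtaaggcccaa
Mrps31: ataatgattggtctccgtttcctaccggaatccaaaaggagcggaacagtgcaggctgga

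Other letters did not separate the classes in this way. CCGGAAG, searched on both strands of the windows of 250 bases before and 50 after the start, stood in 41.0% of cytosolic and 36.9% of mitochondrial genes, beside 9.9% of all genes. AAGATGGC stood in 9.8%, 18.5% and 3.2% of these sets, and CACGTG in 9.8%, 7.7% and 8.1%. Matches of different motifs may overlap. Within the cytosolic class, genes with and without a run were set side by side by the change described next. The median log2 change in WT was 0.34 in the 27 genes with a run, of which 21 rose. It was 0.34 in the 34 without, of which 22 rose. A shorter run, or one farther from the listed start, counts as none here, so this split cannot test the 5′ TOP motif. The medians with and without CCGGAAG were 0.34 (25 genes) and 0.34 (36 genes). They were 0.51 (6 genes) and 0.32 (55 genes) for AAGATGGC, and 0.45 (6 genes) and 0.32 (55 genes) for CACGTG. Differences between these medians were not tested.

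In WT mice αGalCer was followed by higher signals of most cytosolic ribosomal protein genes. Of 75 genes 55 rose and 0 fell, beside 19.8% of all genes that rose and 22% that fell. The median change was 0.32 on the log2 scale, or 1.25-fold, beside -0.018 over all genes. Mitochondrial ribosomal protein genes went both ways: 12 of 74 rose and 11 fell, 51 were not called, and their median change was 0.027. After quantile normalization of the arrays that median was -0.003, so its sign hangs on the scaling, whereas the cytosolic median lay between 0.32 and 0.45 under the 4 scalings run. In 61 of 75 cytosolic genes all 4 WT arrays after αGalCer lay above all 3 after vehicle, a pattern that 21.7% of all genes had, and in 0 of 75 they all lay below (25% of all genes). In mitochondrial genes 17 were above and 12 below. Most of the cytosolic rises were small, and a rule that also asked for a fold of 1.5 kept 12 cytosolic and 2 mitochondrial genes, beside 12.5% of all genes that rose and 14.2% that fell by as much.

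Averaged over the 75 cytosolic genes, knockout arrays lay at 9.78 to 9.90 after αGalCer and at 9.79 to 10.09 after vehicle. The 4 WT arrays after αGalCer lay at 10.27 to 10.37 and the 3 after vehicle at 9.96 to 9.98. The knockout groups overlapped, and the WT groups were well apart. Averaged over the 74 mitochondrial genes, knockout arrays lay at 7.79 to 7.86 after αGalCer and at 7.81 to 8.09 after vehicle, and WT arrays at 7.97 to 8.16 after αGalCer and 7.95 to 8.10 after vehicle, so that arrays after αGalCer and after vehicle overlapped in both genotypes. Replicate 1 of the knockout vehicle group was the highest of its group in both classes, at 10.09 and 8.09. That array also had a mean skeletal muscle marker signal of 8.40, beside 5.47 and 6.65 in the other two of its group, and a mean epithelial marker signal of 8.05, beside 5.15 and 6.15 in the other two. The part of these tissues in its values was not tested.

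**Figure D1:**
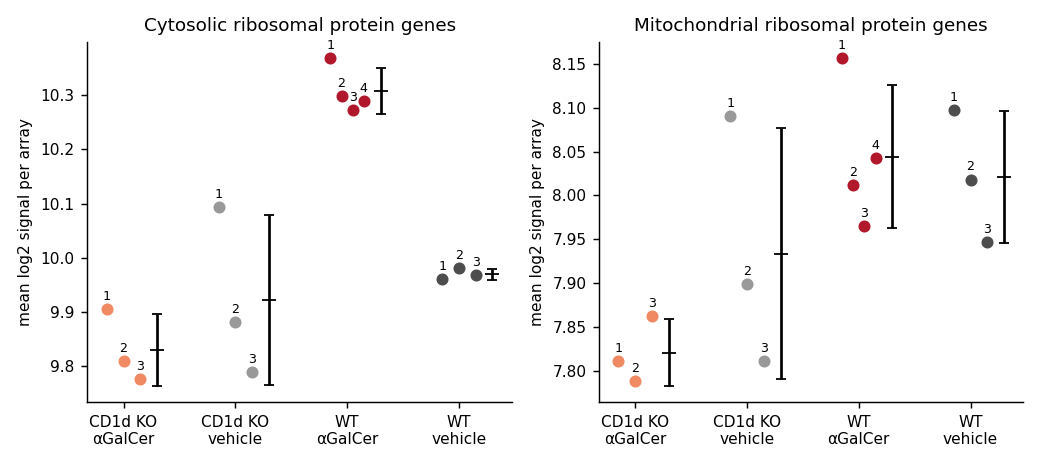
Mean log2 signal per array over 75 cytosolic (left) and 74 mitochondrial (right) ribosomal protein genes; points are arrays with their replicate numbers, and bars are the group mean ± SD (n = 4 for WT after αGalCer, 3 in each other group). The cytosolic mean is highest in the 4 WT arrays after αGalCer (10.27 to 10.37), whereas the mitochondrial means of αGalCer and vehicle overlap in WT.

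**Figure D2:**
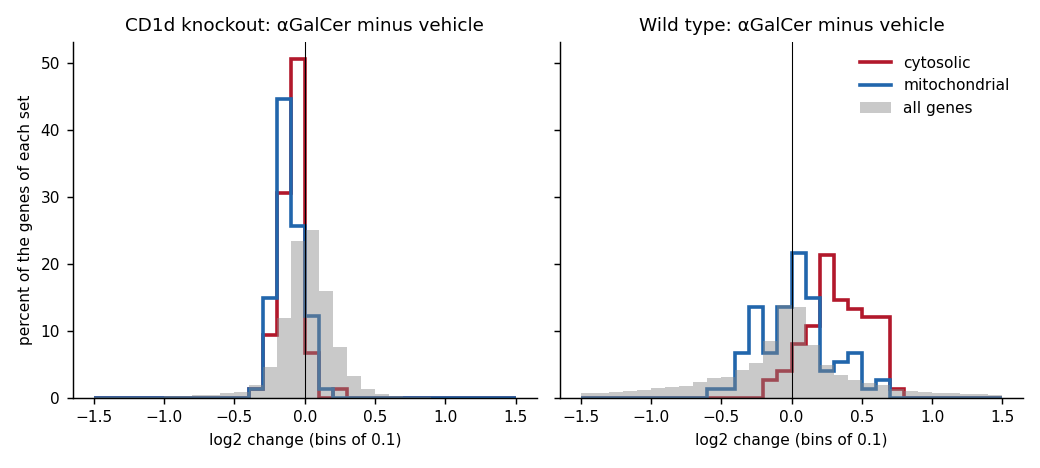
Distribution of log2 changes, αGalCer minus vehicle, in CD1d knockout (left) and WT (right) for cytosolic and mitochondrial ribosomal protein genes and for all 18818 genes, as the percent of each set per bin of 0.1; changes beyond 1.5 in either direction are not drawn. Both classes lie slightly to the left of 0 in knockout (medians -0.09 and -0.11), and in WT the cytosolic genes lie to the right of 0 (median 0.32) and the mitochondrial genes around 0 (median 0.027).

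The largest cytosolic rises came from both subunits. Rpl13, a protein of the large subunit, had log2 signals of 9.97, 9.90, 9.80 and 9.89 in the WT arrays after αGalCer, against 9.14, 9.10 and 9.15 after vehicle. The change was 0.76 ± 0.11 (SE), with an adjusted p of 7.71e-05. The groups did not overlap, and the 6 knockout arrays, at 9.02, 8.78 and 8.67 after αGalCer and 9.31, 8.92 and 8.90 after vehicle, lay with or below WT vehicle except for 1 vehicle array. Rps29, a small zinc-binding protein of the small subunit, had 10.21, 10.15, 10.09 and 9.97 in WT after αGalCer and 9.30, 9.51 and 9.42 after vehicle, a change of 0.70 ± 0.092 (adjusted p = 4.08e-05). Rpl35a, which is mutated in some families with Diamond-Blackfan anaemia, a failure of red cell formation, had 6.97, 6.88, 7.14 and 6.97 and 5.93, 6.63 and 6.33, a change of 0.69 ± 0.15 (adjusted p = 0.0023). Both genes were apart between the WT groups, but the vehicle arrays of Rpl35a were widely spread. The only probe set of Rpl35a has an identifier that lies among those of another chromosome. Rps15a, of the small subunit, had 10.13, 10.04, 10.01 and 10.02 in WT after αGalCer and 9.31, 9.43 and 9.34 after vehicle, a change of 0.69 ± 0.08 and the smallest adjusted p of the class (1.35e-05).

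A further 4 genes were named by size. Rps13, a protein that binds early to the small subunit's RNA, had 9.93, 9.75, 9.80 and 9.80 in WT after αGalCer and 9.23, 9.24 and 9.04 after vehicle, a change of 0.65 ± 0.13. Rps24, another gene of Diamond-Blackfan anaemia, had 9.69, 9.65, 9.77 and 9.75 and 9.07, 9.15 and 9.00, a change of 0.64 ± 0.097. Rps9 had 10.60, 10.52, 10.45 and 10.49 and 9.66, 9.95 and 10.04, a change of 0.63 ± 0.13. In these 3 small-subunit genes every WT array after αGalCer was above every WT array after vehicle, and their adjusted p-values were 0.00122, 0.000131 and 0.00165. Rpl8, which lies near the centre where the ribosome joins amino acids, had 10.90, 10.48, 10.60 and 10.62 in WT after αGalCer and 10.10, 10.08 and 9.91 after vehicle, a change of 0.62 ± 0.16 (adjusted p = 0.00741), with replicate 1 above the other αGalCer arrays. The remaining 47 called genes rose by 0.20 to 0.62. Among them were Rps19, the gene most often mutated in Diamond-Blackfan anaemia (0.41), and Rpl5 and Rpl11 (0.46 and 0.37), whose products bind the p53 inhibitor Mdm2 together with the ribosome's 5S RNA.

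By subunit, 33 of 47 large-subunit genes rose with a median of 0.29, and 22 of 28 small-subunit genes rose with a median of 0.44. Whether the subunits differed was not tested. The arrays' mean over small-subunit genes was 10.34 to 10.44 in WT after αGalCer and 9.96 to 9.99 after vehicle, and over large-subunit genes 10.24 to 10.32 and 9.95 to 9.98. Both subunits were thus apart between the WT groups.

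The 20 cytosolic genes that were not called had probe sets with a mean signal under 8 or above 11. Of 12 genes with a mean log2 signal of 12 or more, 3 were called and the median change was 0.07. Between 8 and 10, 17 of 17 were called with a median of 0.54, between 10 and 11 it was 16 of 16 with 0.46, between 11 and 12 it was 15 of 17 with 0.28, and under 6 it was 1 of 6 with 0.14. Among the bright ones, Rps6, the protein that S6 kinases phosphorylate below mTOR, had 12.67, 12.59, 12.75 and 12.75 in WT after αGalCer and 12.72, 12.86 and 12.75 after vehicle. Its change of -0.084 ± 0.072 (adjusted p = 0.397) was within the spread of the overlapping groups, and it was 0.07 after quantile normalization and 0.13 after cyclic loess. Rplp0, the base of the ribosomal stalk and a common reference gene in RT-PCR, had 12.43, 12.29, 12.21 and 12.33 and 12.21, 12.10 and 12.18, a change of 0.15 ± 0.093 (adjusted p = 0.236), with the lowest αGalCer array level with the highest vehicle array. Of its 4 probe sets, however, 3 were called higher, with a median of 0.25 over the 4, and that of its own chromosome rose by 0.24 (adjusted p = 0.0468 over all probe sets). Rpl28 and Rps2 were higher in all 4 WT arrays after αGalCer than in the 3 after vehicle, but by only 0.084 and 0.12 (adjusted p = 0.176 and 0.09). Of the 18 probe sets of Rps2, however, 16 were called higher, with a median of 0.20 over the 18. The dimmest of them had a mean signal of 10.5 instead of 12.6, and its identifier lies in the run of the gene's own chromosome. It had the largest change of the 18, a rise of 0.67 (adjusted p = 1.42e-05 over all probe sets). Whether the brightness of a probe set limits the change it can show was not tested for the class.

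**Figure D3:**
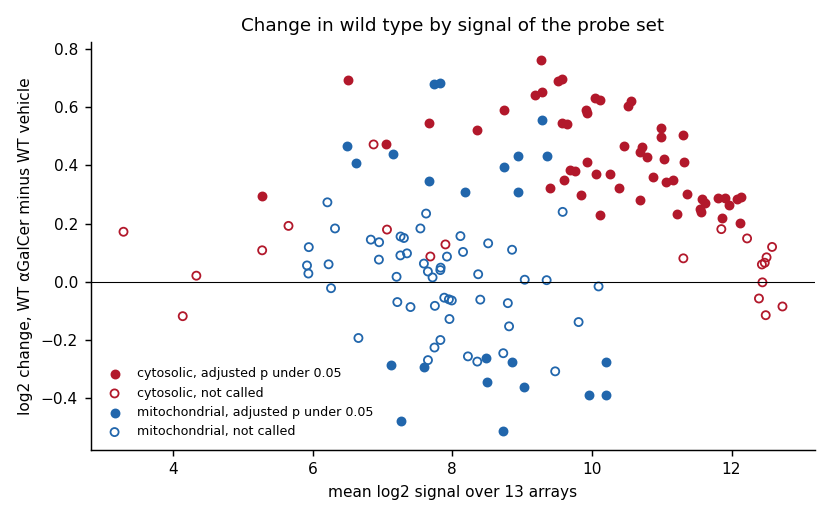
Log2 change in WT, αGalCer minus vehicle, against the mean log2 signal over 13 arrays of the probe set that stands for each of the 149 genes; filled points passed an adjusted p under 0.05. Cytosolic genes between 8 and 10 all rose (17 of 17, median 0.54), whereas of the 12 at 12 or above 3 rose (median 0.07).

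Ribosomal protein genes have many processed copies in the genome, so a probe set may read RNA of more than 1 locus. The array's identifiers run by chromosome: 99.46% of genes with a single probe set lay among identifiers of their own chromosome. By this measure 43 of the 75 cytosolic probe sets chosen lay in the run of another chromosome, against 7 of 74 mitochondrial ones. Of all 384 cytosolic probe sets, the 304 in another chromosome's run had 230 that rose and 1 that fell (median 0.30), and the 80 in their own run had 60 and 0 (median 0.36), beside 20.5% of all probe sets that rose and 21.5% that fell. With the probe set of its own chromosome for each gene, an alternative chosen after seeing the data, 54 of 73 cytosolic genes rose and 0 fell. Rpl29 and Rpl35a had no such probe set, nor had Mrpl41, Mrpl48 and Mrps36. The values of these genes thus come only from probe sets in the runs of other chromosomes. Of all cytosolic probe sets, those in their own run were also dimmer, with a median signal of 10.09 beside 10.96 in other runs. Among the probe sets chosen for the genes, the median change was 0.46 at signals of 10 to 11 and 0.28 at 11 to 12. Whether the medians of 0.36 and 0.30 differ apart from brightness was not tested. Probes were not aligned, so which loci a probe set reads was not tested. Of 55 cytosolic genes with several probe sets, 44 had called sets that all rose, 10 had none called, and Rpl31 had called sets in both directions.

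Close paralogs were compared with their parent genes, each against its own level in WT after vehicle. Rps27l, a paralog that p53 induces, rose by 0.54 ± 0.094 and its parent Rps27 by 0.52 ± 0.10 (adjusted p = 0.000392 and 0.00101). Rpl7l1, a paralog found on precursors of the large subunit, rose by 0.32 ± 0.1 and Rpl7 by 0.54 ± 0.098 (adjusted p = 0.0193 and 0.000573). In both pairs the arrays of the WT groups were apart for each gene. Rpl3l, the paralog that striated muscle uses in place of Rpl3, had 4.22, 4.27, 4.29 and 4.28 in WT after αGalCer and 4.29, 4.01 and 4.44 after vehicle, and its change of 0.021 ± 0.24 was not called and was -0.098 without WT vehicle replicate 2, whereas Rpl3 rose by 0.41 ± 0.10 (adjusted p = 0.00547). The highest Rpl3l signals were 5.07 in replicate 3 of knockout after αGalCer and 4.88 in replicate 1 of knockout after vehicle, which were also the arrays with the highest mean muscle marker signals (8.60 and 8.40).

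The testis paralogs Rpl10l and Rpl39l were dim, and neither was called in WT (-0.12 and 0.17). Their X-linked parents Rpl10 and Rpl39 were not called either (0.06 and -0.11, the second 0.084 after cyclic loess). Rps4l had a difference of 0.087, or of -0.073 with the probe set of its own chromosome, and was not called, while its X-linked parent Rps4x rose by 0.28 ± 0.087 (adjusted p = 0.0199). Rpl32l and Rps19bp1 had changes of 0.19 and 0.13 and were not called. Rpsa, a small-subunit protein also described as a laminin receptor, had 11.05, 10.92, 10.78 and 10.71 in WT after αGalCer and 10.41, 10.50 and 10.29 after vehicle. It rose by 0.46 ± 0.16 (adjusted p = 0.029), and of 26 alternatives that kept the call rule, 4 took the adjusted p above 0.05, to at most 0.104.

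Among mitochondrial genes Mrpl13 and Mrpl19 had rises near the largest cytosolic ones, and the others rose less. Mrpl13, a large-subunit protein with a bacterial counterpart, had 8.52, 8.40, 8.29 and 8.37 in WT after αGalCer and 7.63, 7.81 and 7.70 after vehicle, a change of 0.68 ± 0.098 (adjusted p = 8.21e-05). Mrpl19, likewise of bacterial descent, had 8.31, 8.23, 8.19 and 8.31 and 7.73, 7.47 and 7.54, a change of 0.68 ± 0.11 (adjusted p = 0.00019). Both were apart between the WT groups by more than the whole range within either. Mrpl52, a subunit that bacteria lack, had 9.99, 9.71, 9.48 and 9.90 in WT after αGalCer and 9.39, 9.11 and 9.14 after vehicle, a change of 0.56 ± 0.13 (adjusted p = 0.00401). Mrps25 of the small subunit had 7.56, 7.46, 7.52 and 7.52 and 7.08, 7.11 and 7.04, a change of 0.44 ± 0.085 (adjusted p = 0.000918). The arrays of Mrps25 were tight in both groups, those of Mrpl52 less so. Mrps27, whose protein binds RNA, had 7.13, 6.83, 6.50 and 7.06 in WT after αGalCer and 6.46, 6.46 and 6.32 after vehicle, a change of 0.46 ± 0.17 (adjusted p = 0.0433), and of 26 alternatives that kept the call rule, 9 took that p above 0.05. Mrpl36, Mrpl23 and Mrpl21 rose by 0.43, 0.43 and 0.41 (adjusted p = 0.0023, 0.0149 and 0.0454), and Mrpl54, Mrpl28, Mrps18c and Mrpl18 by 0.39, 0.35, 0.31 and 0.31.

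The largest fall was that of Mrpl51, a large-subunit protein that bacteria lack. It had 8.69, 8.34, 8.34 and 8.47 in WT after αGalCer and 9.15, 8.98 and 8.79 after vehicle, a change of -0.51 ± 0.11 (adjusted p = 0.0017), and the highest αGalCer array was just below the lowest vehicle array. Mrps31, of the small subunit, had 7.01, 7.15, 6.79 and 6.88 and 7.48, 7.39 and 7.43, a change of -0.48 ± 0.099 (adjusted p = 0.00159), with the groups well apart. Mrpl10, which carries the mitochondrial stalk, had 9.84, 9.71, 9.69 and 9.72 in WT after αGalCer and 10.13, 10.11 and 10.14 after vehicle, a change of -0.39 ± 0.067 (adjusted p = 0.000372). Its vehicle arrays were nearly equal and lay above all αGalCer arrays.

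Mrpl49, Mrpl50, Mrps22, Mrps35 and Mrpl48 fell by 0.36, 0.34, 0.29, 0.29 and 0.28 (adjusted p = 0.0152, 0.00268, 0.041, 0.0381 and 0.0146), and their WT arrays after αGalCer all lay below those after vehicle. Mrps22 is mutated in inherited deficiencies of the respiratory chain. Mrps21, which had 9.90, 10.34, 10.27 and 9.90 in WT after αGalCer and 10.70, 10.45 and 10.31 after vehicle, was called at -0.39 ± 0.14 (adjusted p = 0.0469) although the groups overlapped. Mrpl34 and Mrpl17 made up the 11 called falls, at -0.27 and -0.26. Several of these calls hung on the setting: of 26 alternatives that kept the call rule, 15 took Mrps21, 14 Mrps22, 9 Mrps35 and 5 Mrpl34 above an adjusted p of 0.05. The number of mitochondrial genes called in WT was 15 (11 higher, 4 lower) without WT vehicle replicate 1. Of the members that carry a mitochondrial ribosomal symbol but are known for another task, Mrps36, a subunit of the α-ketoglutarate dehydrogenase complex, had a difference of 0.18 and Mrpl58, which releases stalled peptides, one of -0.064, and neither was called.

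By subunit, 9 of 46 large-subunit mitochondrial genes rose and 7 fell (median 0.007), and 3 of 28 small-subunit genes rose and 4 fell (median 0.074), beside 19.8% of all genes that rose and 22% that fell. Neither subunit as a whole was apart between the WT groups: the arrays' mean over large-subunit genes was 8.19 to 8.37 after αGalCer and 8.17 to 8.30 after vehicle, and over small-subunit genes 7.59 to 7.81 and 7.58 to 7.76.

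**Figure D4:**
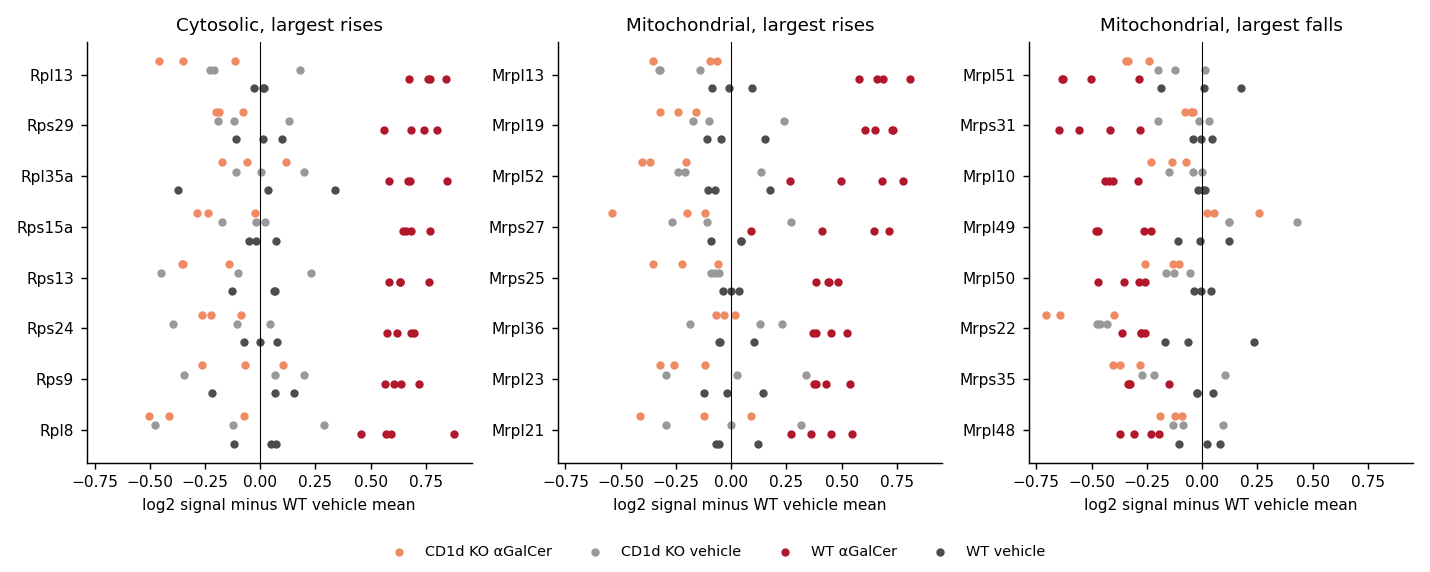
Log2 signal per array minus the gene's WT vehicle mean for the 8 cytosolic genes with the largest rise and the 8 mitochondrial genes with the largest rise or fall in WT; each point is an array, and from top to bottom within a gene the groups are CD1d knockout after αGalCer, CD1d knockout after vehicle, WT after αGalCer and WT after vehicle. The WT arrays after αGalCer stand apart from the WT vehicle arrays in every row, and those of the cytosolic genes also from all 6 knockout arrays.

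In CD1d knockout mice αGalCer was followed by no call in either class: 0 of 75 cytosolic and 0 of 74 mitochondrial genes, as 0% of all genes were called. At an unadjusted p under 0.05, 0 cytosolic genes were higher and 3 lower (Rpl38, Rps12 and Rps23rg1), and 0 mitochondrial genes were higher and 2 lower (Mrpl20 and Mrpl37), beside 3.41% of all genes higher and 3.4% lower. With array quality weights 1 gene of each class was called, Rpl10l higher and Mrps18c lower. The share of all genes called with these weights is not given here. The median changes were -0.09 and -0.11, beside 0.015 over all genes, with a range of -0.33 (Rps23rg1, a retrogene derived from Rps23) to 0.23 (Rpl10l) among cytosolic and of -0.32 (Mrpl20) to 0.12 (Mrpl44) among mitochondrial genes. A slight negative value was common, in 69 of 75 cytosolic and 64 of 74 mitochondrial genes. The knockout arrays after αGalCer all lay below the vehicle arrays in 3 cytosolic and 10 mitochondrial genes (6.04% of all genes) and above them in 0 and 1 (7.79% of all genes). These medians rest on a few arrays. Without replicate 1 of the knockout vehicle group they were -0.01 and -0.028, and without the 3 arrays high in muscle markers (replicates 1 and 2 of knockout vehicle and 3 of knockout αGalCer) they were 0.06 and -0.026, which sets 2 arrays after αGalCer against 1 after vehicle.

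The member with the smallest p in the cytosolic class was Rps12, at 9.61, 9.33 and 9.34 in knockout after αGalCer and 9.89, 9.61 and 9.59 after vehicle. Its change of -0.27 ± 0.11 had an adjusted p of 0.72, and 1 αGalCer array lay within the vehicle range. In the mitochondrial class it was Mrpl20, at 7.45, 7.57 and 7.58 and 7.95, 7.79 and 7.80, a change of -0.32 ± 0.12 (adjusted p = 0.72), with the groups apart.

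The difference between the αGalCer effects, that in knockout minus that in WT, was called lower in 47 of 75 cytosolic genes and higher in 0, beside 13.9% of all genes lower and 14.3% higher. The median difference was -0.42, beside 0.031 over all genes. It was largest for Rpl13, whose changes were -0.22 in knockout and 0.76 in WT (difference -0.98 ± 0.16, adjusted p = 0.00047). Rpl8 had -0.23 in knockout and 0.62 in WT (difference -0.85 ± 0.24, adjusted p = 0.0169), and Rps13 had -0.18 and 0.65 (difference -0.83 ± 0.19, adjusted p = 0.00543). Of mitochondrial genes 10 were lower and 2 higher, with a median of -0.11. Mrpl19 had -0.23 in knockout and 0.68 in WT (difference -0.91 ± 0.16, adjusted p = 0.000779), and Mrpl52 and Mrps27 differed by -0.78 and -0.72 (adjusted p = 0.00854 and 0.0479). The 2 higher genes were Mrps31, at 0.0048 in knockout and -0.48 in WT (adjusted p = 0.0245), and Mrpl10, at -0.083 and -0.39 (adjusted p = 0.0328). Without the 3 arrays high in muscle markers 12 cytosolic genes were called, all lower, with a median of -0.27, and 4 mitochondrial genes (3 lower and 1 higher). The knockout vehicle group then held 1 array, replicate 3, which the model assumes to vary like the other groups. Without knockout αGalCer replicate 3 the cytosolic count was 31, and without knockout αGalCer replicate 2 the mitochondrial count was 7. Shares of all genes called are not given for left-out arrays, so such counts stand without a background.

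Between the genotypes after vehicle, 0 genes of either class were called, beside 0.112% of all genes. The medians, knockout minus WT, were -0.054 for cytosolic and -0.07 for mitochondrial genes, beside 0.02 over all genes. At an unadjusted p under 0.05, 3 cytosolic (Rpl23, Rpl27a and Rpl7a) and 6 mitochondrial genes were lower (2.72% of all genes) and 0 were higher (3.97% of all genes). Mrps22 had the smallest p, at 7.47, 7.50 and 7.45 in knockout and 8.16, 7.86 and 7.76 in WT, a difference of -0.46 ± 0.11 (adjusted p = 0.257), with all knockout arrays below all WT arrays. Rpl23, first in the cytosolic class, had 10.95, 10.78 and 10.68 and 10.96, 10.97 and 11.07, a difference of -0.20 ± 0.077 (adjusted p = 0.65). The medians moved with single arrays: without knockout vehicle replicate 3 the cytosolic median was 0.015, and without knockout vehicle replicate 1 the mitochondrial median was -0.16.

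After αGalCer, 62 of 75 cytosolic genes were lower in knockout than in WT and 1 was higher, beside 19.2% of all genes lower and 21.9% higher, with a median difference of -0.45 beside 0.052 over all genes. The 55 cytosolic genes that rose in WT were all among those lower in knockout; both comparisons use the WT arrays after αGalCer. The largest difference was again in Rpl13, at 9.02, 8.78 and 8.67 in knockout and 9.97, 9.90, 9.80 and 9.89 in WT (-1.07 ± 0.11, adjusted p = 4.21e-06). Rpl8 and Rps13 were lower in knockout, with differences of -0.95 and -0.94 (adjusted p = 0.000348 and 6.69e-05). The 1 higher gene was the dim testis paralog Rpl10l, at 4.19, 4.49 and 4.38 in knockout and 3.88, 3.98, 4.11 and 4.03 in WT (0.35 ± 0.11, adjusted p = 0.0192).

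Of 74 mitochondrial genes 26 were lower in knockout after αGalCer and 3 higher, with a median difference of -0.21, beside the same 19.2% and 21.9% of all genes. The largest were Mrpl19 (-0.92 ± 0.11, adjusted p = 1.44e-05), Mrpl52 (-0.88 ± 0.13, adjusted p = 0.000119) and Mrpl13 (-0.85 ± 0.098, adjusted p = 1.2e-05). The 3 higher ones, Mrpl49, Mrps31 and Mrpl10, were among those that fell in WT, and differed by 0.47, 0.42 and 0.24 (adjusted p = 0.00287, 0.00382 and 0.0104). A further 13 mitochondrial genes were called here but not in WT after αGalCer, among them Mrpl47, Mrpl15, Mrps18b and Mrps36, at -0.55, -0.52, -0.54 and -0.53. Without knockout αGalCer replicate 2, 18 mitochondrial genes were called.

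Genes that build or regulate ribosomes were set beside the members in WT. Of 47 ribosome biogenesis genes 37 rose after αGalCer (19.8% of all genes) and 1 fell (22% of all genes). Their median change was 0.63. Heatr1, a factor of early ribosomal RNA processing, had 8.96, 8.82, 8.48 and 8.94 in WT after αGalCer and 7.55, 7.34 and 7.13 after vehicle, a change of 1.46 ± 0.13 (adjusted p = 1.16e-06), and Nop58, a core protein of the particles that methylate ribosomal RNA, had 7.63, 7.74, 7.32 and 8.07 and 6.31, 6.60 and 6.48, a change of 1.23 ± 0.16 (adjusted p = 4.6e-05). Both were far apart between the groups. The gene that fell was Sbds, which releases the factor Eif6 from the new large subunit, at -0.38 ± 0.084 (adjusted p = 0.00241). In knockout 0 of 47 were called, with a median of -0.039.

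Of 18 other genes whose mRNAs carry a 5′ TOP motif 9 rose (19.8% of all genes) and 0 fell (22% of all genes). Their median change was 0.19. They included the nucleolar chaperone Npm1 (0.76 ± 0.15, adjusted p = 0.0013), the elongation factor Eef1b2 (0.59 ± 0.12, adjusted p = 0.00124) and Fau, whose precursor gives a protein of the small subunit (0.43 ± 0.082, adjusted p = 0.000922). Among 16 regulators of TOP mRNAs 5 rose (Myc, Eif4e, Max, Mlst8 and Larp1) and 4 fell (Eif4ebp1, Mycn, Tsc2 and Mtor), with a median of -0.084. These counts stand beside 19.8% of all genes that rose and 22% that fell. Myc had 10.19, 9.73, 9.15 and 9.73 in WT after αGalCer and 7.93, 7.75 and 7.91 after vehicle, a change of 1.84 ± 0.18 (adjusted p = 2.56e-06), with the groups far apart and replicate 1 the highest. Eif4e, which binds the mRNA cap, rose by 0.71 ± 0.095 and its inhibitor Eif4ebp1 fell by 0.79 (adjusted p = 4.68e-05 and 3.45e-05). Mycn, a relative of Myc, was dim and called at -0.46 ± 0.17 with overlapping groups (adjusted p = 0.0432). In knockout 0 genes of these 2 lists were called.

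Genes of mitochondrial translation were mostly not called in WT, as were most of all genes, of which 19.8% rose and 22% fell. Of 11 translation factors 0 rose and 2 fell, Guf1 (-0.57 ± 0.17, adjusted p = 0.0133) and the ribosome recycling factor Mrrf (-0.43 ± 0.099, adjusted p = 0.00343), while the elongation factor Tufm was not called (-0.061). Of 16 mitochondrial aminoacyl-tRNA synthetases, which load tRNAs with amino acids, Mars2 rose (0.39 ± 0.092, adjusted p = 0.0041) and 3 fell, led by Iars2 (-0.82 ± 0.089, adjusted p = 7.28e-06), with Vars2 (-0.39 ± 0.14, adjusted p = 0.0373) and Lars2 (-0.30). Of 20 mitochondrial ribosome assembly genes the pseudouridine synthase Rpusd4 rose (0.67 ± 0.10, adjusted p = 0.000162) and 4 fell, Mpv17l2, the RNA-binding Grsf1, Mtg1 and Ptcd3 (-0.53, -0.53, -0.47 and -0.32). The adjusted p of Mpv17l2 and Grsf1 was 0.00254 and 8.07e-05.

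Regulators of mitochondrial transcription and biogenesis went in opposite directions. Ppargc1a, the coactivator PGC-1α that drives mitochondrial genes in fat and muscle, had 5.76, 5.27, 5.97 and 6.02 in WT after αGalCer and 7.84, 7.52 and 7.83 after vehicle, and fell by 1.98 (adjusted p = 3.28e-06). Its relatives Pprc1 and Ppargc1b had 7.95, 7.41, 7.23 and 7.60 and 7.91, 7.84, 7.83 and 7.53 in WT after αGalCer, against 6.76, 6.67 and 6.24 and 7.26, 7.05 and 6.73 after vehicle, and rose by 0.99 ± 0.16 and 0.76 ± 0.15 (adjusted p = 0.000258 and 0.000825). All 3 were apart between the WT groups. Of the 13 genes of this list 4 rose (19.8% of all genes) and 2 fell (22% of all genes). Nrf1 and Gabpb1 also rose, by 0.32 and 0.34. Tfb2m, a factor of mitochondrial transcription, was the other fall (-0.44 ± 0.13, adjusted p = 0.0155). Tfam, which packs mitochondrial DNA, was not called (0.20, adjusted p = 0.244).

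**Figure D5:**
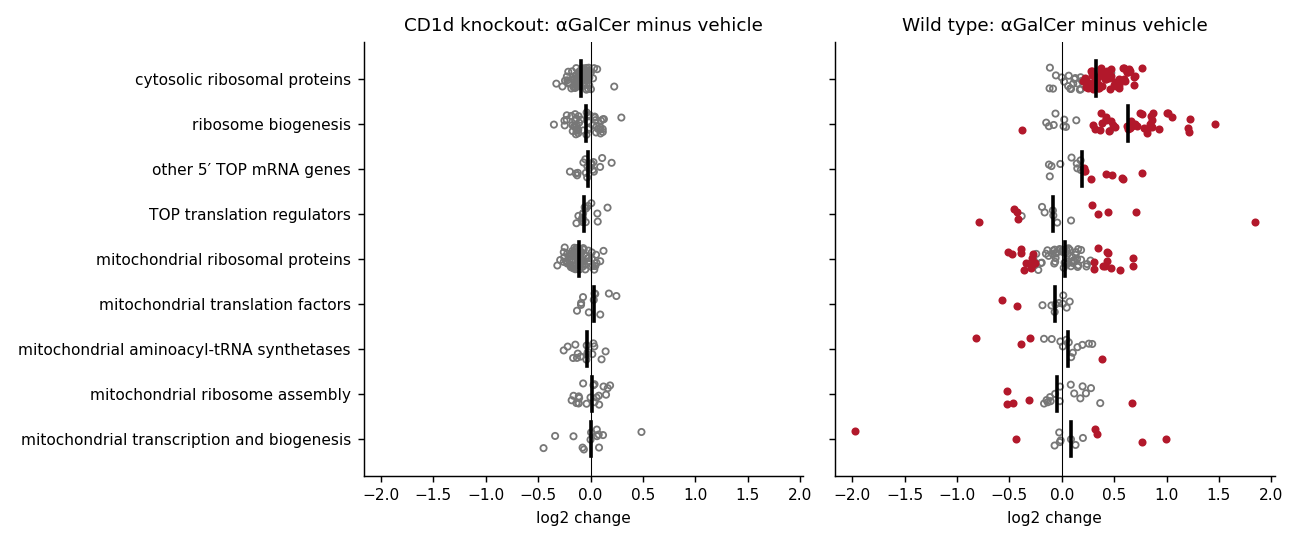
Log2 change of each gene, αGalCer minus vehicle, in CD1d knockout (left) and WT (right) for the 2 classes of ribosomal protein genes and 7 related lists; each point is a gene, filled where the adjusted p was under 0.05, and the black bar is the median. In knockout 0 genes of any list are called, and in WT the ribosome biogenesis list (median 0.63) and the cytosolic class (median 0.32) lie to the right of 0.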

How the data were processed

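The authors deposited a table of log2 signals, 1 row per probe set and 1 column for each of 13 arrays. It comes from RMA, per the submitters' processing notes; the RMA version is not given in the sources used here. RMA corrects background, quantile normalises and summarises probes, which understates changes of dim probe sets. Per the labels' protocols, 100 ng of RNA per array was labelled, from samples with an RNA integrity number above 8.0. Probe sets were named by the platform annotation, updated through Entrez identifiers with RefSeq (GRCm38.p6): of 35556 probe sets, 21218 had 1 symbol and 1881 several, and 471 were of members.

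One limma model (version 3.58.1, R 4.3.3) held a mean per group, 9 residual degrees of freedom and eBayes with an intensity trend. It gave 5 two-sided contrasts over 18818 genes with no filter on dim genes; adjusted p is Benjamini-Hochberg over all of them. It was tested on simulated data. Scan dates were not used here, so no batch was tested, and the number of arrays limits precision.

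Members and lists were chosen with earlier results of these data known. Genes were named by a rule: per class the 8 largest called rises and falls in wild type with groups that did not overlap, up to 3 per direction in other contrasts (the smallest p where none was called), paralogs with parents, the 3 brightest and dimmest, 2 per direction and list, and some genes regardless of p. Others named were added after their values were seen. Lists carry counts and medians and no test of their own. Alternatives covered the variance model, thresholds, normalization, array weights, probe set choice, a replicate block and left-out arrays.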

Additional observations from a re-analysis of the deposited data

Results flagged for a closer look

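In 79 groups of 4 WT arrays after αGalCer, 1 per named gene or class, 4 had a single array far from the others, where chance gives about 5%. Rpl23 stood at 11.53 in replicate 2, Mrps22 at 7.57 in replicate 3, Mrps35 at 7.17 in replicate 1 and Eef1b2 at 10.66 in replicate 1.

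The effect of αGalCer differed between the genotypes, by the test of the difference itself, in 47 of 75 cytosolic and 12 of 74 mitochondrial genes. Of all genes, 14.3% were called higher and 13.9% lower in this test. Of the named cytosolic genes the log2 differences, knockout minus WT, were Rpl13 -0.98, Rps29 -0.79, Rpl35a -0.76, Rps15a -0.81, Rps13 -0.83, Rps24 -0.68, Rps9 -0.68, Rpl8 -0.85, Rps12 -0.65, Rpl23 -0.45, Rpl3 -0.55, Rpl7 -0.72, Rps27l -0.76, Rps27 -0.57 and Rps4x -0.38. Of the named mitochondrial genes they were Mrpl13 -0.59, Mrpl19 -0.91, Mrpl52 -0.78, Mrps27 -0.72, Mrps25 -0.58, Mrpl36 -0.52, Mrpl23 -0.69, Mrps31 0.48 and Mrpl10 0.31. Of the named genes in related lists they were Npm1 -0.73, Eef1b2 -0.56, Heatr1 -1.53, Nop58 -1.17, Sbds 0.50, Myc -1.86, Eif4e -0.78, Eif4ebp1 0.80, Mrrf 0.47, Iars2 0.70, Rpusd4 -0.63, Grsf1 0.49, Pprc1 -1.15, Ppargc1b -1.10, Ppargc1a 1.53 and Fau -0.46. The other ribosomal and related genes that were named by the rule and called in WT were not shown to differ between the genotypes. Genes named outside that rule are not listed here, although some of them differed.

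Probe sets annotated to several genes, of which at least 1 was a ribosomal protein gene, entered no comparison of members. Of these 73 probe sets 58 rose in WT after αGalCer and 3 fell, with a median of 0.41, beside 20.5% that rose and 20.9% that fell among all probe sets with 1 or several symbols. In CD1d knockout 0 were called, with a median of -0.072.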

How the results depend on the processing

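Of 526 recomputed counts and medians of the 2 classes, 490 stayed within 1.5 times the count or 1 SD of the median, and the others follow. For most alternatives the share of all genes called is not given, so their counts stand without a background. For αGalCer in WT, a fold of at least 1.5 left 12 cytosolic and 2 mitochondrial genes, an adjusted p under 0.01 left 11 mitochondrial genes, and cyclic loess gave a cytosolic median of 0.45. Leaving out each array in turn gave 45 to 57 cytosolic (medians 0.29 to 0.35) and 15 to 29 mitochondrial genes (medians -0.018 to 0.04). In knockout, array weights gave 1 call in each class, left-out arrays gave 0 calls and medians of -0.16 to -0.01 (cytosolic) and -0.19 to -0.028 (mitochondrial), and leaving out the 3 arrays high in muscle markers gave 0.06 and -0.026; this leaves 1 knockout vehicle array, assumed to vary like the other groups, here and below. For the difference of effects, cytosolic counts were 22 at an adjusted p under 0.01, 21 with the fold, 12 without the 3 arrays and 31 to 52 over left-out arrays. Cytosolic medians were -0.35 with array weights, -0.51 with cyclic loess, -0.27 without the 3 arrays and -0.47 to -0.34 over left-out arrays. Mitochondrial counts were 21 with array weights, 5 at the stricter p, 5 with the fold, 4 without the 3 arrays and 7 to 13 over left-out arrays (medians -0.17 to -0.041). For knockout minus WT after vehicle, medians without the 3 arrays were -0.16 (cytosolic) and -0.21 (mitochondrial), and over left-out arrays -0.12 to 0.015 and -0.16 to -0.025, with 0 calls. After αGalCer, the fold left 32 cytosolic and 6 mitochondrial genes and the stricter p 18 mitochondrial genes. Cytosolic medians were -0.53 with quantile normalization, -0.56 with cyclic loess, -0.52 with the mean of all probe sets and -0.54 with the own-chromosome probe set, chosen after seeing the data. Left-out arrays gave 56 to 65 cytosolic (medians -0.47 to -0.42) and 18 to 32 mitochondrial genes (medians -0.23 to -0.15).

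Of 49 named members 33 were called in WT, and 10 of them under all alternatives. Over all 1367 recomputed values of the 49, 1236 kept their sign and side of the threshold, 107 lost the call and 10 gained one. The sign turned in 14, none called: Rpl3l (-0.098 to 0.12 over left-out arrays, the lowest without WT vehicle replicate 2), Rps6 (0.074 with quantile normalization, 0.13 with cyclic loess, 0.012 with the own-chromosome probe set), Mrpl22 (-0.063 with array weights, -0.017 without WT vehicle replicate 2, and -0.074 to 0.16 over left-out arrays, the lowest without WT αGalCer replicate 1), Mrps12 (-0.043 with the replicate block, -0.02 without WT vehicle replicate 3, -0.043 without WT αGalCer replicate 4), Mrpl40 (0.069 with cyclic loess, and -0.029 to 0.0011 over left-out arrays, the highest without WT vehicle replicate 3), Rpl39 (0.084 with cyclic loess) and Rps4l (-0.073 with the own-chromosome probe set). The causes were not tested.

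The labels number the replicates without saying that a number links arrays across groups. Deviations from the group means of same-numbered arrays correlated at -0.20 to 0.48 (median 0.022) and those of other arrays at -0.57 to 0.46 (median 0.018), and in 13 of 36 cases an array was closest to its own number, so the numbers were not taken as pairs. With a replicate block 52 cytosolic and 22 mitochondrial genes were called in WT (medians 0.33 and 0.022), and 42 and 12 in the difference of effects.

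For RMA signals no depth is known. With 3 or 4 arrays per group the median SE of a change in WT was 0.095 for cytosolic and 0.11 for mitochondrial genes, so changes near 0.2 were often not detectable. Probe sets of ribosomal protein genes may read RNA of processed copies, and dim probe sets understate changes. Markers of several cell types moved with αGalCer in WT, and composition and expression per cell cannot be told apart in whole tissue. The knockout groups hold 3 arrays high in muscle markers.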

Other observations

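Subunits of the elongation factor that brings aminoacyl-tRNAs to cytosolic ribosomes were not all called in WT after αGalCer. Eef1d, like Eef1b2, rose, by 0.58, and Eef1g by 0.47 (adjusted p = 0.00105 and 0.0132). Eef1a1, which carries the tRNA, was not called (-0.099, adjusted p = 0.18). Its WT arrays lay at 12.76 to 13.01, beside 6.78 to 10.66 for Eef1b2, Eef1d and Eef1g. Cytosolic ribosomal protein genes at 12 or more also had a small median change (0.07). Whether the subunits differed, apart from brightness, was not tested. Of 4 listed subunits of the initiation factor eIF3, Eif3h rose by 0.28 and Eif3e, Eif3f and Eif3l were not called (0.14, 0.18 and -0.12). The poly(A)-binding protein Pabpc1 rose by 0.21, and Naca and Btf3, which together bind new peptides at the ribosome, by 0.22 and 0.21. In CD1d knockout mice the changes of Eef1d and Eef1g were 0.02 and -0.20 and were not called. Genes of mTOR signalling, the pathway that controls translation of TOP mRNAs, changed in both directions in WT: Mtor itself fell by 0.42 and its inhibitor Tsc2 by 0.43, while Mlst8, a partner of Mtor, rose by 0.34 and the TOP-binding Larp1 by 0.29 (adjusted p = 0.00954, 0.00115, 0.0296 and 0.028). Max, the partner of Myc on DNA, rose by 0.44 (adjusted p = 0.000118). These genes were chosen after their values were seen.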
